A study of Mus musculus with 24 samples.

Results

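Terminal nucleotidyltransferases add nucleotides without a template to the 3′ ends of RNA, and poly(A) polymerases are the relatives that add adenosines. The 10 genes of this family followed here were Tut4, Tut7, Tut1, Tent2, Tent4a, Tent4b, Mtpap, Papola, Papolg and Tent5c. They were chosen by name, without a cut on any measured value but with earlier results of these data known. Their rows were found through the RefSeq accession of each 3′ untranslated region (3′UTR) interval. The 10 genes, of 20867 with an interval, were covered by 11 intervals. The question put to them was whether the RNA of the relatives differs in level or in decay when Tut4 and Tut7 are deleted.

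The data are SLAM-seq libraries of mouse preleukemic cells, in which 4-thiouridine (4SU) built into new RNA is alkylated and read as C in place of T. Both genotypes derived from c-Kit-enriched fetal liver cells transduced with retroviral Meis1 and Hoxa9, the agents that the labels write as Hox9/Meis1. Cells labelled Tut4/7 Vav-iCre cDKO carried Tut4 fl/fl and Tut7 fl/fl alleles and Vav-iCre, a recombinase driven by a promoter active in blood cells. Controls carried the same floxed alleles without Vav-iCre. All cells received 4SU at 2.9 µM over 12 h and were then chased without it for 0, 60, 180 or 540 min, with 3 libraries of each genotype at each time and 24 in all. The labels name the chase time as the batch, so that a comparison of genotypes at one time lies within a batch, and time and batch cannot be told apart. The study's methods describe its replicates as coming from separate animals or embryos, without tying single libraries to them, so the libraries of different times may share a culture.

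TUT4 and TUT7 are cytoplasmic enzymes that add uridines to messenger RNAs with short tails and to microRNA precursors, and uridylated RNA is degraded from either end. TUT1 tails U6 small nuclear RNA. TENT2 (also called GLD2) adds adenosines in the cytoplasm, TENT4A and TENT4B add adenosines and occasional guanosines to messenger RNAs and to aberrant nuclear RNAs, MTPAP makes the tails of mitochondrial RNAs, and PAPOLA and PAPOLG make the tails of new messenger RNAs in the nucleus. The TENT5 proteins are cytoplasmic poly(A) polymerases of messenger RNAs, TENT5C being best known from plasma cells and red cell precursors.

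Reads in 3′UTRs numbered 4380235 to 7041311 per library, and levels are given as reads per 1000000 of them (CPM). Each read stands for a primed 3′ end, and CPM is not divided by length. The intervals lay on mm10 at chr4:108558786-108559415 for Tut4, chr13:59771879-59772859 for Tut7, chr19:8966161-8966210 for Tut1, chr13:93147400-93147590 for Tent2, chr13:69497959-69499915 for Tent4a, chr8:88257276-88259722 for Tent4b, chr18:4396468-4397330 for Mtpap, chr12:105836861-105838944 for Papola, chr11:23862646-23863957 for Papolg and chr3:100471536-100472262 for Tent5c. Each is annotated as 3′UTR, and none overlapped an interval of another gene. A second Tut7 interval of 47 bases held 36 reads in all libraries together. The Tut1 interval was only 50 bases long with 11 T positions, and Tent2 reads were multimapping in 56.0%, against 8.99% for Tent4b and at most 0.235% for the other members. For Tent2, Tent4b, Mtpap, Papolg and Tent5c the annotated gene ran on by 1545 to 3592 bases beyond the interval, so reads from more distal ends were not counted.

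Markers of several blood lineages differed between the genotypes, with genes of the same list going different ways. All 8 progenitor and myeloid markers were detected in both genotypes, with summed levels of 2212 to 2838 CPM in control and 1707 to 2436 CPM in cDKO. Within that list the median over the 12 libraries of a genotype was lower in cDKO for Mpo (9.60 against 554 CPM). The cDKO libraries were not alike in Mpo, which ran from 0.712 to 220 CPM. Medians were also lower for Ptprc (175 against 227 CPM), Spi1 (120 against 181), Kit (50.8 against 76.1), Fcgr3 (254 against 274) and Myb (704 against 735). They were higher for Csf2rb (581 against 334 CPM) and Cd34 (27.6 against 20.1). The 7 erythroid markers summed to 211 to 298 CPM in control, with Hba-a2, Hbb-bs and Epor at 0, and to 1631 to 2347 CPM in cDKO, with Epor at 0. Most of the cDKO sum was Hbb-bt (median 1477 against 0.304 CPM in control). Tfrc was at 271 against 263 CPM, and Klf1 had 21 reads in cDKO and 55 in control. The 5 mast cell and basophil markers summed to 15.8 to 34.5 CPM (Cpa3 and Fcer1a at 0) and 130 to 246 CPM (Fcer1a at 0). Cpa3 (median 57.7 CPM in cDKO) and Gata2 (86.3 against 6.03 CPM) were higher in cDKO. Mcpt8 (9.89 against 14.6 CPM) and Ms4a2 (5.98 against 6.17 CPM) were not. The 4 macrophage markers summed to 43.9 to 84.8 CPM in control and to 176 to 286 CPM in cDKO (C1qa and Mrc1 at 0), and the 6 neutrophil markers to 21.0 to 39.5 CPM in control and 0.379 to 2.74 CPM in cDKO (Ltf at 0). Among the macrophage markers Adgre1 was higher in cDKO (median 198 against 20.6 CPM) and Csf1r lower (0.787 against 28.6 CPM). The 3 megakaryocyte markers summed to 2.40 to 9.49 CPM in control and 7.32 to 23.7 CPM in cDKO, and lymphoid and fibroblast markers to at most 1.59 CPM. Of the megakaryocyte markers, Itga2b was higher in cDKO (median 13.1 against 0.365 CPM). Pf4 (1.46 against 2.94 CPM) and Gp9 (0 against 1.35 CPM) were lower. The part of these differences in the results below was not tested.

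Tut4 RNA was lower in the cDKO libraries at all chase times. In control, its 3′UTR reads stood at 68.1, 75.2 and 86.3 CPM at 0 min, 85.7, 91.0 and 88.6 at 60 min, 77.6, 88.3 and 105 at 180 min, and 81.3, 84.9 and 76.5 at 540 min. In cDKO, they stood at 17.8, 30.2 and 18.6 CPM at 0 min, 31.9, 40.0 and 32.2 at 60 min, 35.6, 33.6 and 34.6 at 180 min, and 26.4, 27.3 and 21.2 at 540 min. The highest cDKO library thus lay below the lowest control library at each time. With the 4 times summed for each replicate number, Tut4 changed by -1.53 ± 0.09 on the log2 scale (SE, 3 sums per genotype) to 34.6% of control, with an adjusted p of 8.79e-05 in edgeR's quasi-likelihood test over 11204 genes, of which 30.6% were called and 15.7% were called lower. At single times the log2 difference was -1.75 at 0 min, -1.37 at 60 min, -1.40 at 180 min and -1.70 at 540 min, with adjusted p from 5.46e-05 to 0.00118. Of all genes tested at these times, 13.4, 20.2, 18.9 and 19.2% were called, and 6.64, 10.2, 9.78 and 10.4% were called lower.

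Tut7 RNA was lower as well, and by less. In control it stood at 40.3, 34.6 and 45.1 CPM at 0 min, 37.7, 45.4 and 45.5 at 60 min, 61.0, 66.1 and 50.6 at 180 min, and 62.6, 54.5 and 61.4 at 540 min. In cDKO it stood at 16.7, 19.2 and 20.2 CPM at 0 min, 22.0, 25.8 and 29.9 at 60 min, 26.4, 26.2 and 33.3 at 180 min, and 23.7, 19.8 and 21.2 at 540 min. Again the genotypes did not overlap at any time, as held for 784 of 9896 genes (7.92%) with cDKO below control at all 4 times. The summed difference was -1.10 ± 0.08 (SE, adjusted p = 1.86e-04), to 46.8% of control. The smallest single-time difference was -0.74 at 60 min (adjusted p = 0.00751) and the largest -1.47 at 540 min (adjusted p = 1.14e-04).

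Reads of both genes therefore remained in cells labelled cDKO, 1795 for Tut4 and 1461 for Tut7 over the 12 cDKO libraries. The sources used here do not give which exons the floxed alleles remove, and a 3′UTR tag outside them is read from a deleted transcript as from an intact one, so these reads do not check the deletion. The study itself reports the deletion of both genes in Meis1/Hoxa9 cells, by deletion-specific PCR and a protein comparison. It does not tie that evidence to these libraries. In bulk samples like these, fewer cells carrying an RNA and less of it per cell cannot be told apart.

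**Figure D1:**
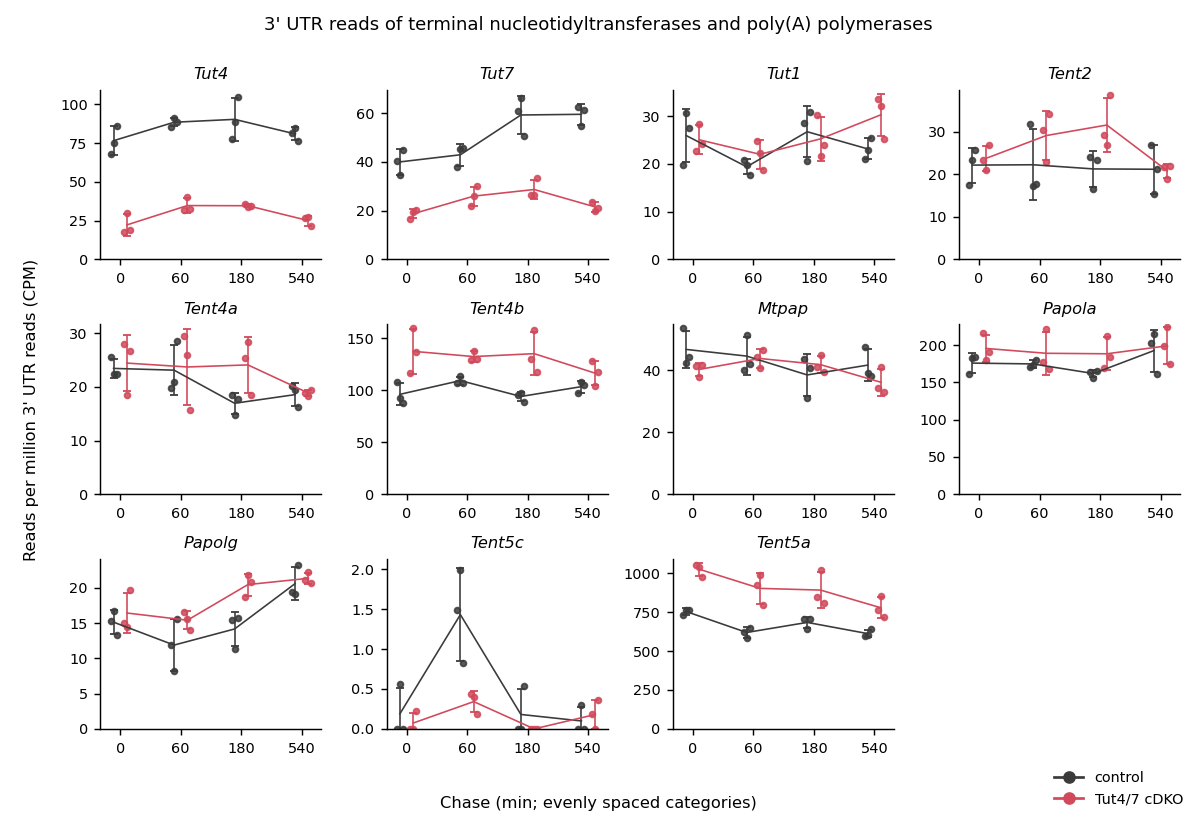
Level of each of the 10 genes and of Tent5a in every library, in CPM (vertical axes, each from 0) against chase time in min (evenly spaced categories), with control in grey and Tut4/7 cDKO in red. Points are libraries, lines join group means and bars are SD of 3 libraries, drawn only above 0. Tut4 and Tut7 lie lower in cDKO at all 4 times without overlap, Tent5a lies higher at all 4, Tent4b at 0, 60 and 180 min, and the control level of Tut7 is higher at 180 and 540 min than at 0 and 60 min.

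Among the relatives, Tent4b, whose product tails nuclear RNAs for the exosome and messenger RNAs with mixed tails, was the 1 member called higher. In control it stood at 108, 92.6 and 87.7 CPM at 0 min, 107, 114 and 107 at 60 min, 95.4, 97.7 and 88.9 at 180 min, and 97.2, 108 and 105 at 540 min. In cDKO it stood at 116, 160 and 137 CPM at 0 min, 129, 138 and 130 at 60 min, 130, 158 and 118 at 180 min, and 128, 104 and 118 at 540 min. Every cDKO library was above every control library at 0, 60 and 180 min, as were 15.4, 20.5 and 19.6% of all genes tested at these times, and the genotypes overlapped at 540 min. The summed difference was 0.36 ± 0.06 (SE), or 1.29-fold, with a 95% interval of 0.21 to 0.51 and an adjusted p of 0.00539. In that comparison 14.9% of all 11204 genes tested were called higher. Tent4b passed in each of the 19 alternatives run on that sum, with adjusted p from 2.35e-05 to 0.0323, and with the smallest difference of 0.27 after scaling to filtered reads.

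At single times Tent4b was less secure. Its log2 difference was 0.54 ± 0.15 at 0 min (adjusted p = 0.0459), 0.26 ± 0.08 at 60 min (adjusted p = 0.0509), 0.50 ± 0.12 at 180 min (adjusted p = 0.0126) and 0.16 ± 0.10 at 540 min (adjusted p = 0.312), where 6.72% of all genes were called higher at 0 min and 9.1% at 180 min. The call at 0 min was lost in 8 of 16 alternatives, among them leaving out cDKO replicate 3 (adjusted p = 0.0517) or control replicate 1 (0.0716), 2 (0.181) or 3 (0.189), and the call at 180 min without control replicate 1 (0.0635) or 3 (0.0770). At 60 min, leaving out cDKO replicate 3 brought it past the threshold (adjusted p = 0.0469). The share of filtered reads that fell in 3′UTRs was also lower in cDKO at the early times, 44.2 to 45.6% against 48.7 to 49.4% in control at 0 min, and 48.7 to 50.1% against 49.8 to 50.7% at 540 min. The part of that share in the Tent4b values was not tested beyond the scaling to filtered reads, under which the 0 min difference was 0.38 (adjusted p = 0.0915).

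None of the other 6 relatives that could be tested passed the threshold in the summed comparison. For Tut1, the U6 enzyme, the difference was 0.11 with a 95% interval of -0.13 to 0.35. For Tent2 it was 0.26 (-0.12 to 0.64), and for Tent4a, the close paralog of Tent4b, 0.13 (-0.12 to 0.39). For the mitochondrial polymerase Mtpap it was -0.10 (-0.26 to 0.07). For the nuclear polymerases it was 0.12 (-0.04 to 0.27) in Papola and 0.23 (-0.02 to 0.49) in Papolg. The difference found in Tent4b lies inside the intervals of Tent2, Tent4a and Papolg and outside those of Tut1, Mtpap and Papola. In all, 1 of 7 relatives tested was called higher and 0 were called lower, against 14.9% of all genes called higher and 15.7% called lower, so the share among the relatives was near the background. The median log2 difference of the 7 was 0.13, beside 0.00415 for all genes tested.

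**Figure D2:**
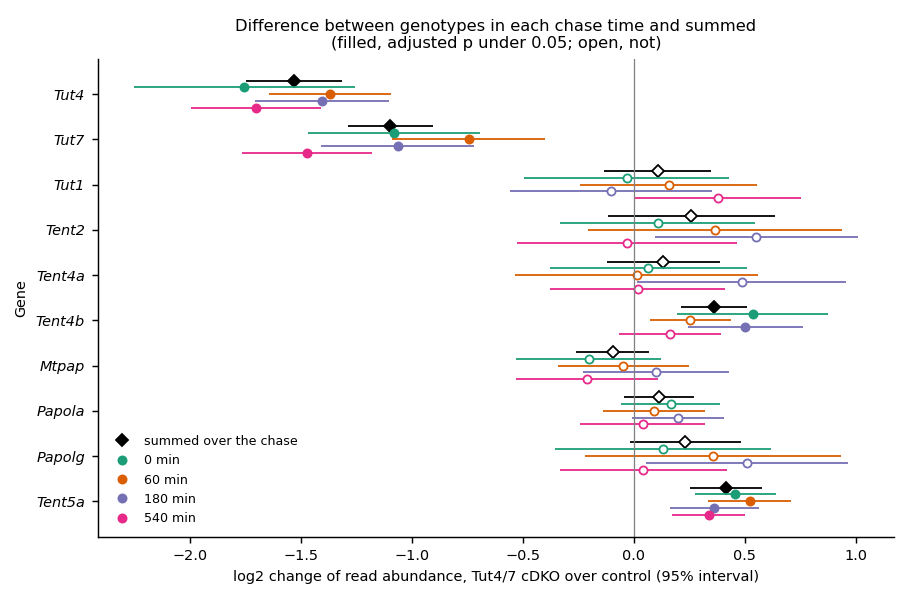
Difference in read abundance between genotypes, as log2 of Tut4/7 cDKO over control (horizontal axis) for 9 members and Tent5a, at each chase time (circles, 3 libraries per genotype) and for the sum over the 4 times (black diamonds, 3 sums per genotype), with 95% intervals from edgeR. Filled symbols have an adjusted p under 0.05. Tut4 and Tut7 are filled at every time on the left, Tent5a at every time on the right, and Tent4b in the sum and at 0 and 180 min.

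At 180 min several relatives lay higher in cDKO together, without passing the adjusted threshold. Tent2 stood at 24.1, 16.5 and 23.3 CPM in control and 29.3, 26.8 and 38.7 CPM in cDKO (log2 difference 0.55, adjusted p = 0.0908). Papolg stood at 15.4, 11.3 and 15.7 CPM in control and 18.7, 21.8 and 20.9 CPM in cDKO (0.51, adjusted p = 0.115). Papola stood at 164, 157 and 166 CPM in control and 169, 213 and 184 CPM in cDKO (0.20, adjusted p = 0.171). These 3 members and Tent4b had no overlap between genotypes at 180 min, where 19.6% of all genes lay above without overlap. Tent4a overlapped (0.49, adjusted p = 0.144) and passed without cDKO replicate 3 (adjusted p = 0.0374). At 540 min, the same 5 genes differed by -0.03 to 0.16 and overlapped. Differences at 180 and 540 min were not tested against each other.

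Mtpap lay lower in cDKO at 0 min, when it stood at 53.6, 42.3 and 44.1 CPM in control and 41.3, 37.8 and 41.6 CPM in cDKO. Although these did not overlap, as for 18% of all genes in this direction, the log2 difference of -0.20 did not pass (adjusted p = 0.424), and the genotypes overlapped at the later times. Tut1 ranged from 17.6 to 30.9 CPM in control and from 18.8 to 33.6 CPM in cDKO, overlapping at each time. Its largest difference was 0.38 at 540 min (adjusted p = 0.153).

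Tent5c was close to absent. It had 31 reads in the 12 control libraries and 9 in the 12 cDKO libraries, with 0 reads in 6 libraries of each, and was too low for the test across genes. Most control reads came from 60 min, when the libraries held 1.49, 1.99 and 0.820 CPM. The pooled control level was 0.459 CPM and the pooled cDKO level 0.146 CPM, a ratio of 3.13 with an exact 95% interval of 1.46 to 7.48 that covers counting error only. Tent5c lies on chromosome 3, where the median gene was 0.51 lower in cDKO on the log2 scale in the summed comparison (526 genes, 365 called). No other member lies there, and the medians of the members' other chromosomes were between -0.02 and 0.10. The part of the chromosome 3 shift in the Tent5c value was not tested.

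Beyond the 10 genes, the list of further relatives held Papolb, Tent5a, Tent5b and Tent5d. Papolb, the testis poly(A) polymerase, had 0 reads in 24 libraries, which allows up to 0.0444 CPM in the pooled control and 0.0488 CPM in the pooled cDKO libraries. Tent5b had 0 reads in control and 5 in cDKO, and Tent5d had 59 and 31 reads. Tent5a was abundant and rose. It stood at 731, 767 and 765 CPM in control and 1056, 1041 and 978 CPM in cDKO at 0 min, and at 596, 602 and 639 CPM against 763, 852 and 719 CPM at 540 min. No overlap occurred at 0, 60, 180 or 540 min, as held for 6.47% of genes with cDKO above control at all times. The summed difference was 0.42 ± 0.07 (SE, adjusted p = 0.00427), or 1.33-fold, and it was called in all 19 alternatives. At single times it was 0.46, 0.52, 0.36 and 0.34 (adjusted p from 0.00186 to 0.0184), with the call lost at 180 min without control replicate 1 (0.0748), 2 (0.108) or 3 (0.0749) and at 540 min without control replicate 1 (0.0591). The erythroid, mast cell and macrophage marker sums given above, each carried by few genes of its list, were higher in the same libraries. Their part in the Tent5a value was not tested.

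Summed over the family, the control libraries held 134 ± 14.8 CPM of Tut4 and Tut7 and the cDKO libraries 52.8 ± 10.9 CPM (SD over 12 libraries of 4 times). The other 8 members held 402 ± 23.7 CPM in control and 457 ± 26.3 CPM in cDKO. Their sum lay above control without overlap at 0 min (460 to 467 against 401 to 412 CPM), 60 min (427 to 488 against 404 to 410 CPM) and 180 min (443 to 514 against 348 to 390 CPM), and overlapped at 540 min (413 to 461 against 391 to 439 CPM). Among single genes tested, 15.4, 20.5 and 19.6% lay above without overlap at 0, 60 and 180 min. CPM is per 3′UTR read, and 3′UTR reads were a mean 44.7% of filtered reads in cDKO and 49.1% in control at 0 min. At 60 min these shares were 45.2 and 50.7%. Sums scaled to filtered reads were not made, and the part of this share in them was not tested. All 10 genes together held 536 ± 23.3 CPM in control and 510 ± 29.6 CPM in cDKO. That total overlapped between genotypes at 60 and 180 min, while cDKO lay below control at 540 min (455 to 508 against 528 to 579 CPM) and just below at 0 min, where the highest cDKO library held 508.95 CPM and the lowest control library 509.13 CPM. The share of Tut4 and Tut7 in the 10-gene sum was 25.1 ± 2.75% in control and 10.3 ± 1.95% in cDKO, without overlap. These sums count 3′-end reads and weigh the genes with most reads, Papola and Tent4b, most. They say nothing of protein or of enzyme activity, and no test was made of them.

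**Figure D3:**
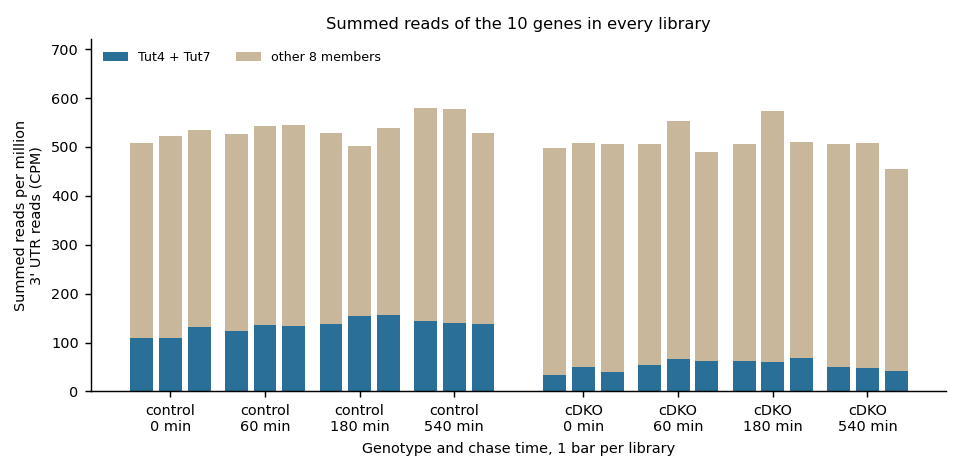
Summed reads of the 10 genes in each of the 24 libraries, in CPM (vertical axis from 0), with 3 bars per genotype and chase time. The lower segment is Tut4 with Tut7 and the upper segment the other 8 members. The lower segment takes 21.0 to 30.7% of the bar in control and 6.94 to 13.3% in cDKO, while the whole bar overlaps between genotypes at 60 and 180 min and is lower in cDKO at 0 and 540 min.

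A half-life read from conversions assumes a steady level over the chase, so levels at 540 and 0 min were compared within each genotype. In control, Tut7 was the 1 member called (0.53 ± 0.13 on the log2 scale, SE, adjusted p = 0.00719), where 16.2% of 10226 genes were called and 8.06% were called higher. It was at 40.0 ± 5.24 CPM at 0 min and 59.5 ± 4.35 CPM at 540 min (SD, n = 3), and passed in all 9 alternatives. In cDKO the same comparison gave 18.7 ± 1.81 and 21.5 ± 1.96 CPM for Tut7 (0.17, adjusted p = 0.789), and no member was called, where 12 of 10235 genes (0.117%) were. With the replicate number as a block, which within cDKO pairs the libraries, 128 genes were called in cDKO and still no member. Tent5a fell in control by 0.34 on the log2 scale (adjusted p = 3.30e-04). In cDKO it differed by -0.43 (adjusted p = 0.191), and by -0.44 with the block (adjusted p = 0.0292). A direct test of the genotypes' changes against each other followed, and 0 of 10651 genes (0%) passed in edgeR, 557 having an unadjusted p under 0.05, while DESeq2 called 6 and the fit with a replicate block of each genotype 6. For Tut7 that difference was -0.37 (unadjusted p = 0.0810, adjusted p = 0.976) and for Tent4b -0.35 (unadjusted p = 0.0826, adjusted p = 0.976). A change of Tut7 over the chase that differs between the genotypes was therefore not shown.

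Conversions of T to C, which mark RNA made during labelling, were fewer in cDKO at 0 min for the 9 members with values. Over the whole library, the 0 min rate was 1.64 ± 0.03% of covered T positions in control and 0.736 ± 0.169% in cDKO (SD, n = 3), a ratio of 2.23. The Tut4 rate was 2.41, 2.17 and 2.13% in the control libraries and 1.04, 0.694 and 0.912% in cDKO. The Tent4b rate was 1.68, 2.20 and 1.94% in control and 1.06, 0.899 and 0.547% in cDKO. Over 9 members, the ratio of control to cDKO means was 1.99 (Papolg) to 4.16 (Tut1, with 119 conversions in all libraries together). Relative to the library's own rate, no member passed, with adjusted p from 0.835 to 0.982 where 28 of 8809 genes (0.318%) were called. The 95% interval of that difference was -0.30 to 0.24 for Papola and -0.73 to 0.19 for Tut4 on the log2 scale. Tent5a had a smaller ratio of 1.86, and a difference of 0.25 relative to the library that did not pass (adjusted p = 0.0990; 0.00875 without cDKO replicate 3).

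**Figure D4:**
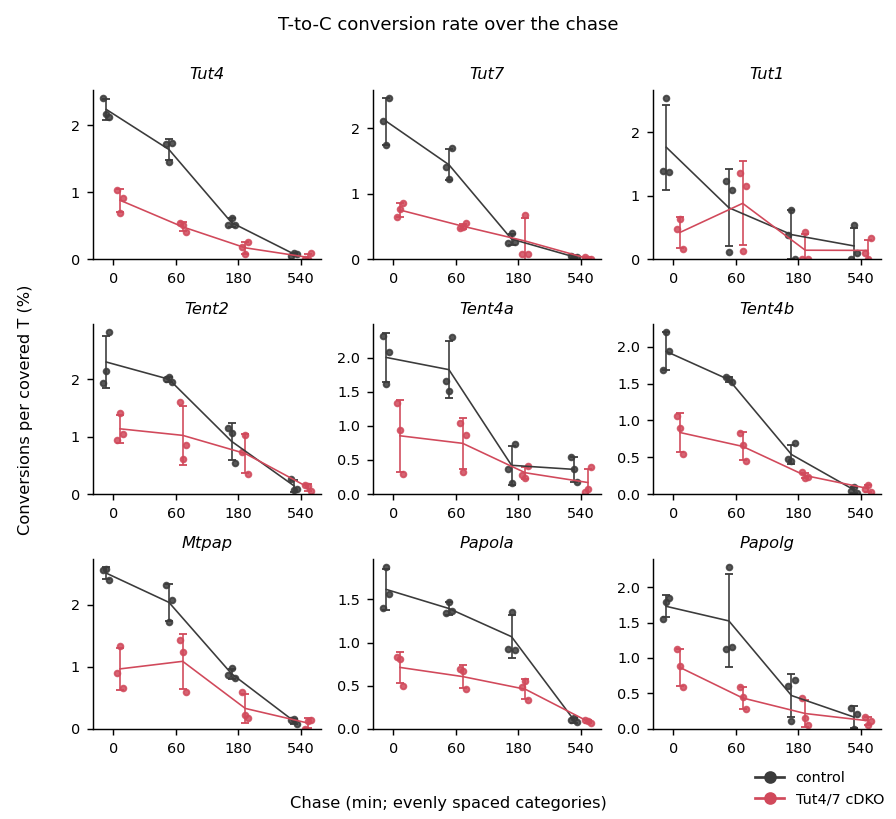
Conversion rate of 9 members over the chase, as the percent of covered T positions read as C (vertical axes from 0) against chase time in min (evenly spaced categories), in control (grey) and Tut4/7 cDKO (red). Points are libraries, lines join group means and bars are SD of 3 libraries, drawn only above 0. Rates are lower in cDKO at 0 min in all 9 and reach 0.0119 to 0.362% at 540 min, and the Tut1 rates scatter most.

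Over the chase the conversions of Tut4 and Tut7 were lost quickly in both genotypes. Of the 0 min rate, Tut4 kept 73.3% at 60 min, 24.5% at 180 min and 3.46% at 540 min in control, and 55.0, 19.5 and 3.34% in cDKO. Tut7 kept 68.6, 14.7 and 1.77% in control, and 67.3, 37.1 and 1.58% in cDKO, where the value at 180 min rests on 1 library (0.679% against 0.0752 and 0.0811% in the other two). Papola lost its conversions more slowly, with 66.1% left at 180 min in control and 64.6% in cDKO, beside 65.7 and 68.2% for the whole library. Tent4b kept 27.7 and 30.1% at 180 min.

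The decay of each gene was compared between genotypes by the genotype-by-hour term on conversion counts, on the log2 scale per hour, where a positive value stands for slower loss in cDKO. All 24 libraries entered as separate. Yet cDKO libraries of the same replicate number were correlated across times (r of deviations from group means 0.26 to 0.74). The SE and p-values of this term do not allow for cultures shared between times. No member passed, and 12 of 9207 genes (0.13%) did, 1585 having an unadjusted p under 0.05. For Tut4 the term was -0.07 ± 0.10 (SE), for Tut7 0.10 ± 0.15, for Tent4b 0.19 ± 0.07 (adjusted p = 0.162) and for Papola 0.11 ± 0.05 (adjusted p = 0.249). The 5 others were between 0.02 (Tent4a) and 0.09 (Tent2). Tut4 alone among the 9 had a value under 0, and its 95% interval of -0.27 to 0.12 held 0. Values above 0 were the rule, in 80.7% of all genes tested, and the median of the 7 relatives, 0.08, was close to that of all genes, 0.07. These values are without subtraction of a background rate. DESeq2 called 207 genes on this term and no member. No unlabelled library was used here, and the rate of 418 short-lived genes at 540 min in cDKO, 0.0692%, bounds the background. At 540 min the Tut4 rate was 0.0774% in control and 0.0295% in cDKO, and the Tut7 rate 0.0372 and 0.0119%.

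Half-lives from a single exponential placed most members among the shorter-lived transcripts. In control they were 103 min for Tut4, 82.8 min for Tut7, 65.1 min for Tut1, 154 min for Tent2, 130 min for Tent4a, 117 min for Tent4b, 135 min for Mtpap, 131 min for Papolg and 219 min for Papola, beside a median of 199 min over 9256 genes. Of all genes, 7.55% had a shorter half-life than Tut7 in control, 15.3% than Tut4, 21.3% than Tent4b and 55.6% than Papola. The order within the family is a description, with no test. Control replicates of Tut1 lay at 126, 13.65 and 78.7 min, so its place as the shortest is not secure. The Tut7 value and rank come from a control level that rose over the chase. The conversions behind the control values ranged from 84 for Tut1 to 2641 for Papola.

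In cDKO the half-lives were 73.0 min for Tut4, 117 min for Tut7, 224 min for Tent2 and 229 min for Papola, the 4 members whose rates at 0 min had an SD under 0.3 of the mean in both genotypes. Tut4 was the 1 of the 4 with a shorter half-life in cDKO, while 68.6% of 3712 genes with the same filter had a longer one. The cDKO level of Tut4 was not steady, with means of 22.2 CPM at 0 min, 34.7 at 60 min, 34.6 at 180 min and 25.0 at 540 min. The part of this rise and fall in its half-life was not tested. By replicate number, the control half-lives of Tut4 were 94.7, 102 and 113 min and the cDKO half-lives 66.3, 84.0 and 70.7 min, which did not overlap (two-sided exact permutation p = 0.1, the smallest that 3 against 3 allows), as held in the shorter direction for 3.23% of these genes. For Tut7 the control half-lives, from a level that was not steady over the chase, were 77.8, 95.7 and 79.1 min. Its cDKO half-lives were 86.9, 236 and 72.0 min, which overlapped those of control (exact permutation p = 0.7). Tent2 and Papola overlapped as well (exact permutation p = 0.6 and 0.5). Fitted on the log scale with the intercept left free, the log2 ratio of cDKO to control moved from -0.49 to -0.13 for Tut4, from 0.50 to -0.02 for Tut7 and from 0.07 to 0.44 for Papola, so that 2 of the 4 were longer in cDKO. With the background rate of 0.0692% (the floor rate) subtracted, 2 of the 4 were also longer, as were 57.6% of 3107 genes. The median log2 ratio over genes was then 0.08, in place of 0.19 without the subtraction. The replicate numbers did not pair control libraries of different times, so that a control half-life by number joins libraries that share only a number.

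Outside the SD filter, the control and cDKO half-lives were 117 and 122 min for Tent4b, 135 and 179 min for Mtpap, and 130 and 168 min for Tent4a. Papolg was at 148, 130 and 119 min in the control replicates but 107, 65.5 and 54.6 min in the cDKO ones, without overlap (exact permutation p = 0.1, where 3.37% of 9256 genes were shorter without overlap), from 119 conversions over the 12 cDKO libraries. That order depended on the fit: with each rate divided by its genotype's mean at 0 min, the cDKO replicates of Papolg were at 179, 66.8 and 37.5 min and overlapped the 121 to 135 min of control, and with a free intercept its half-life was longer in cDKO (201 against 131 min). Tut1 and Tent4a each had a cDKO replicate at the upper limit of the fit, 10000 min, and their cDKO half-lives are not read further.

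**Figure D5:**
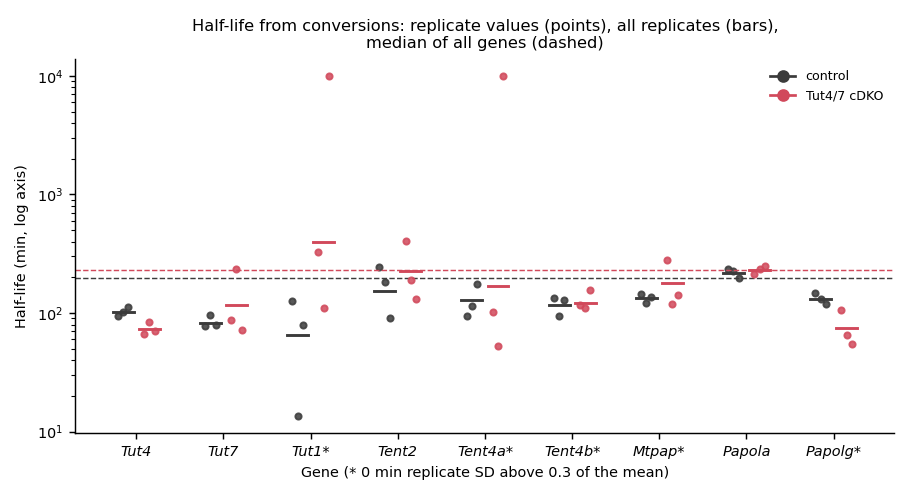
Half-life of 9 members from conversion rates, in min on a log axis, in control (grey) and Tut4/7 cDKO (red). Points are half-lives by replicate number, bars the fit to all replicates and dashed lines the median of 9256 genes in each genotype (199 and 231 min). An asterisk marks genes outside the SD filter, and the points at 10000 min are at the upper limit of the fit. The bars of Papola lie close to the dashed lines, and in control those of the other 8 members lie below.

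The partners of these enzymes, in lists drawn up by function, changed in few members and in both directions. In the decay of uridylated RNA, 4 of 17 tested genes rose and 2 fell, beside 14.9 and 15.7% of all genes. They included the helicase Ddx6 (0.34 ± 0.05, adjusted p = 0.00174), the Lsm ring subunits Lsm6 (0.27) and Lsm7 (-0.31), and the helicase Mov10 (-0.75, at 3.53 to 12.1 CPM in control), which lies on chromosome 3. The exonuclease Dis3l2, which degrades uridylated RNA, had a difference of -0.31 that did not pass (adjusted p = 0.101). Among recruiters and let-7 regulators, Lin28a, which brings TUT4 and TUT7 to let-7 precursors, rose by 0.70 ± 0.18 (adjusted p = 0.0229) from a range of 8.62 to 25.4 CPM to one of 20.1 to 39.7 CPM, and Trim25, a cofactor of that step, fell by 0.34 on the log2 scale (adjusted p = 0.0137), with 5 tested.

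Beside the 14.9% of all genes called higher and 15.7% called lower, 0 of 18 deadenylases and their adaptors rose and 4 fell, namely Btg2 (-1.44 ± 0.33, adjusted p = 0.0165), Tob1 (-0.99 ± 0.23, adjusted p = 0.0169), Cnot8 (-0.30) and Cnot9 (-0.19). Btg2 and Tob1, which recruit the CCR4-NOT complex, were at 5.26 to 15.0 and 2.61 to 6.11 CPM in control. Of 17 cleavage and polyadenylation genes, Nudt21 (0.67) and Cpsf2 (0.18) rose while Rbbp6 (-0.33) and Cpsf6 (-0.18) fell. Of 9 genes of poly(A) binding, Larp1 rose (0.29 ± 0.05, adjusted p = 0.00734). Of 10 partners of the nuclear exosome, with which TENT4B works, Exosc10 fell (-0.26, adjusted p = 0.0198). Of 7 genes of mitochondrial RNA tailing and decay, Pnpt1 (0.44) and Pde12 (0.29) rose. Of 5 genes listed around U6 RNA, Larp7 fell (-0.42), which lies on chromosome 3. List medians were between -0.08 and 0.09, beside 0.00415 for all genes. In the decay term, 0 genes of any list were called.

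Across the 24 libraries, the genes whose log2 CPM ran most like that of Tut4 were D630023F18Rik, Antxr2 and Mbnl1 (Pearson r from 0.949 to 0.951), and those most like Tut7 were Pde7a (0.953), Fam102b (0.947) and Atp2b4 (0.936). For Tent4b they were Eif3l, Mrpl12 and Slc3a2 (0.846 to 0.852). The libraries fall into 8 groups that these genes share, and after the group means were removed r was -0.02 to 0.48 for the genes named with Tut4, 0.23 to 0.44 for those with Tut7 and 0.48 to 0.65 for those with Tent4b. Mbnl1, Pde7a and Fam102b lie on chromosome 3, where the median gene was 0.51 lower in cDKO. The part of that shift in their likeness to Tut4 or Tut7 was not tested.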

How the data were processed

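Total RNA was alkylated, and 3′-end libraries (QuantSeq FWD) were made from 500 ng with 16 PCR cycles. The authors ran SlamDunk, version 0.4.3 per the file headers, over 3′UTR intervals of mm10, and the deposited tables give whole-number counts of reads, of covered T positions and of conversions. Mapping and filter settings are not given in the sources used here. A further deposited column gives the fraction of covered T positions that were converted, and the deposited CPM column scales read counts to filtered reads; rates were recomputed from the counts, and the CPM column served only to recover filtered reads.

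Of 39419 intervals per table, 39096 (99.18%) matched a symbol in a RefSeq table of GRCm38.p6. The longest of overlapping intervals of a gene was kept, and counts were summed per gene. Abundance was tested with edgeR 4.0.16 (quasi-likelihood, TMM scaling, filterByExpr, Benjamini-Hochberg adjustment over all genes tested, threshold 0.05), and conversions likewise with log T coverage as the offset, for genes with a coverage of at least 100 per library and 50 conversions in all. Both fits were run on simulated data. The simulated conversions had the same expected 0 min rate in all replicates of a genotype and no background, unlike these libraries. That run therefore does not show how the decay test behaves here. Half-lives were least-squares fits of an exponential from 1 to 0 to rates divided by the 0 min mean of the genotype (for replicate half-lives, by the replicate's own 0 min rate), bounded to 1 to 10000 min. Without molecular identifiers, the exact interval from pooled reads covers counting error only, while the edgeR intervals also hold the spread between libraries.

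The members and lists were chosen with earlier results of these data known. An erythroid and a megakaryocyte marker are not reported here and were left out of the sums. Genes of the lists were named if called in the summed comparison, at most the 4 largest per list, and Dis3l2 was named after its value was seen. Replicate numbers did not pair the genotypes at a time (r of deviations from group means -0.05 to 0.08), nor control libraries of different times (-0.02 to 0.12), but paired cDKO libraries of different times (0.26 to 0.74). Alternatives were DESeq2 1.42.0, other scalings and filters, all intervals, multimapping reads subtracted, a replicate block, and each replicate left out.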

Additional observations from a re-analysis of the deposited data

How the results depend on the processing

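The lower levels of Tut4 and Tut7 were called in every abundance comparison under each alternative run, and the higher Tent4b in the summed comparison as well. With 1 replicate left out at a time, the number of members called in the summed comparison was 3 throughout, and at single times it was 2 to 3 at 0 and 60 min, 2 to 4 at 180 min and 2 at 540 min. It remained 0 in the decay term, relative labelling, the cDKO change over the chase and the difference of changes, and 1 in the control change. The number of members with a longer half-life in cDKO, 3 of 4, became 7 of 9 without the SD filter, an alternative that keeps more genes, and was 2 to 4 with a replicate left out, namely 2 or 3 of 4 or, without cDKO replicate 3, 4 of 8. It was 2 of 4 with a free intercept, without 540 min and with the floor rate subtracted. The Tut7 half-life ratio turned with a free intercept (-0.02) and without cDKO replicate 2 (-0.08), and that of Papola without 540 min (-0.09), with the floor subtracted (-0.08) and without control replicate 3 (-0.00428). Other counts of members stayed within 1.5 times. With the replicate number as a block, Tent4b at 0 min did not pass (0.53, adjusted p = 0.0864), Tent4a at 60 min was at -0.00387, and calls over all genes went from 12 to 24 in the decay term and from 12 to 128 in the cDKO change over the chase, while in the other comparisons they stayed within 1.5 times. A block of each genotype gave 6 calls in the difference of changes, in place of 0.

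Over all genes, the decay term gave 12 calls, 207 by DESeq2, 4 with the floor rate subtracted, 23 with the library rate as offset, 1 without 540 min and 3 to 30 with a replicate left out. The cDKO change gave 12, 123 by DESeq2 and 0 to 5 with a replicate left out, and the abundance at 0 min 1360, 2292 in a fit of all 24 libraries and 633 to 2223 with a replicate left out. For these the cause was not tested.

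Differences that changed sign were all below the threshold, and the cause was not tested. Scaled to filtered reads, Tent2 (-0.0418), Tent4a (-0.0778) and Papolg (-0.0173) at 0 min, Tent4a (-0.136) and Papola (-0.0534) at 60 min and Tent4a (-0.000587) at 540 min turned. Tent2 at 0 min turned with multimapping reads subtracted (-0.0757), Tent4a at 60 min with scaling without chromosome 3 (-0.0016), and Tut1 in the sum without 540 min (-0.00373). In the decay term Tent4a turned with the floor subtracted (-0.0109) and with the library rate as offset (-0.0168), and Mtpap (-0.0385), Papola (-0.0106) and Papolg (-0.0451) turned without 540 min.

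With a replicate left out, values at 0 min ran from -0.185 to 0.0968 for Tut1, -0.0329 to 0.222 for Tent4a, -0.0103 to 0.203 for Papolg and -0.0239 to 0.218 for Tent2. At 60 min they ran from -0.17 to 0.239 for Tent4a, -0.119 to 0.0712 for Mtpap and -0.0383 to 0.168 for Papola. At 180 min they ran from -0.263 to 0.00178 for Tut1 and -0.0358 to 0.189 for Mtpap, and at 540 min from -0.195 to 0.187 for Tent2, -0.0728 to 0.143 for Papola and -0.0714 to 0.0877 for Tent4a. The cDKO change ran from -0.0183 to 0.433 for Tut4 and -0.106 to 0.0813 for Papola, and the control change from -0.0169 to 0.141 for Tut4 and -0.314 to 0.0633 for Tent2. The difference of changes ran from -0.0753 to 0.381 for Tut4, -0.193 to 0.069 for Tent4a, -0.117 to 0.106 for Mtpap, -0.149 to 0.072 for Papolg and -0.304 to 0.0804 for Tent2. The decay term ran from -0.369 to 0.0163 for Tut4, -0.0768 to 0.212 for Tut7, -0.094 to 0.312 for Tut1, -0.232 to 0.13 for Tent4a and -0.00836 to 0.163 for Papolg, and relative labelling from -0.481 to 0.0835 for Tut4, -0.521 to 0.17 for Tent4a, -0.179 to 0.00993 for Tent4b and -0.111 to 0.0732 for Papola.

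Depth limits the decay values: Tut1, Tut7, Papolg, Tut4 and Tent4a in cDKO rest on 35, 113, 119, 185 and 191 conversions over 12 libraries. Of the Tut4 conversions in cDKO, 81 came from 0 min and 3 from 540 min. Tut1, Tent2, Tent4a and Papolg had 45 to 206 reads in a library.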
